A study of Mus musculus with 8 samples.

Results

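The genes described here encode the nuclear subunits of the mitochondrial respiratory chain and of ATP synthase, measured as mRNA in mouse granulosa cells. They were chosen by symbol: names that begin Nduf with a, b, c, s or v and a number, Sdha to Sdhd, and names that begin Uqcr, Cox4 to Cox8, or Atp5. Of the 51886 gene symbols in the table, 103 matched, 13 were left out because their symbol held -ps or Rik, and 8 were left out because fewer than 4 of the 8 libraries held at least 1 TPM. The remaining 82 members all had at least 1 TPM in all 8 libraries. TPM is a share of transcripts, scaled to a fixed total corrected for transcript length, so levels of different genes can be set side by side. The 82 comprised 37 members of complex I, 4 of complex II, 8 of complex III, 16 of complex IV and 17 of ATP synthase. The nuclear subunits Ndufab1 of complex I and Cyc1 of complex III do not match these symbols and are in none of these counts. Just inside the limit on low values was Ndufa4l2 at a mean of 2.58 TPM. Just outside it was Cox6a2, with a mean of 0.859 TPM and 2 libraries at 1 TPM or more.

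Complexes I and II pass electrons from NADH and succinate to ubiquinone, complex III passes them to cytochrome c, and complex IV passes them to oxygen. The proton gradient built by complexes I, III and IV drives ATP synthase, whose F1 head makes ATP and whose Fo part lets protons through the inner membrane. Most subunits are nuclear genes imported as proteins, while a small core is encoded by mitochondrial DNA. In granulosa cells the same organelle also holds the first step of steroid synthesis, which becomes prominent after the ovulatory signal.

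The study compared PGR-A KO mice, which lack the A isoform of the progesterone receptor, with wild-type (WT) mice of the same strain. All animals of both groups were 21 to 27 days old, received 5 IU eCG to grow follicles and, 46 h later, 5 IU hCG to start ovulation, and their granulosa cells were collected 8 h after hCG. There were 4 PGR-A KO and 4 WT libraries, each a pool of cells from 2 to 3 mice, so that P-values measure the spread between pools. The Pgr value sums all transcripts of the gene and does not check the loss of the A isoform.

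Each library summed to between 994519 and 997022 TPM, a unit from which sequencing depth cannot be read, and the depth behind each value is unknown. Pairs of libraries had correlations of 0.970 to 0.991 on the log2 scale. On the first principal component of all tested genes, which held 34.9% of the variance, PGR-A KO replicate 3 scored 25.8 while the other PGR-A KO libraries scored -20.7, -10.6 and -16.4. WT replicate 1 scored -21.2 while the other WT libraries scored 3.55, 20.9 and 18.5. On this component both libraries thus stood among those of the other genotype. They stood on the side of their own label for Lyve1, 1 of the 2 genes that passed the adjusted threshold (limma adjusted p = 0.00919), which was at 35.6 TPM in PGR-A KO replicate 3 and 18.8 to 23.3 TPM in the other PGR-A KO libraries, and at 267 TPM in WT replicate 1 and 127 to 161 TPM in the other WT libraries. Since Lyve1 passed a test between these same labels, its values are no independent check of them. Pgr, the targeted gene, likewise did not overlap between genotypes, at 2.01 to 3.52 TPM in PGR-A KO and 0.756 to 1.56 TPM in WT. Results that these libraries move are given with and without them. All 14 granulosa markers were measured, with a summed level of 5673 to 9578 TPM. The 14 oocyte markers in the table were measured too and summed to 630 to 1534 TPM, highest in PGR-A KO replicate 3 and lowest in WT replicate 2.

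Promoter stretches of the members show recognition words of the factors best known for nuclear respiratory genes. RefSeq promoter windows of 300 bases, from 250 before to 50 after the start site (build GRCm38.p6), were matched for 67 of the 82 members and gave 72 windows. The NRF1 word GCATGCGC, searched on both strands, was in 13.9% of the members' windows, in 2.71% of all 32851 windows and in 4.97% of the windows of genes tested here. The stretches below, 5′ to 3′ on the strand of the gene, hold it in capitals. They come from Atp5g2 (chr15:102671055-102671114, minus strand), Cox6a1 (chr5:115349086-115349145, minus), Ndufa11 (chr17:56717677-56717736, plus), Ndufa6 (chr15:82354342-82354399, minus) and Sdhb (chr4:140961192-140961249, plus). In the first 3 the word lies on both strands, overlapping itself, and the capitals cover both copies.
Atp5g2: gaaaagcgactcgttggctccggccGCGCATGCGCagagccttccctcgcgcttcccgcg
Cox6a1: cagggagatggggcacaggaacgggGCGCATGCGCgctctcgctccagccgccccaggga
Ndufa11: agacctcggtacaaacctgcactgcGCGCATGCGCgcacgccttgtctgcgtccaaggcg
Ndufa6: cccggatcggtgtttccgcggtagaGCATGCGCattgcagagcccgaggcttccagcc
Sdhb: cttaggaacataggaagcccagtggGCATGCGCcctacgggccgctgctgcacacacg

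The ETS word CCGGAAG, read by GABP among other factors, was in 23.6% of the members' windows, in 8.86% of all windows and in 16.8% of those of tested genes. It is shown in capitals for Cox6b1 (chr7:30626115-30626167, minus strand), Ndufs3 (chr2:90904722-90904773, minus), Sdhd (chr9:50603864-50603920, minus) and Uqcr11 (chr10:80406856-80406912, minus), which cover complexes I to IV. Where it lies on the opposite strand it reads as its reverse complement.
Cox6b1: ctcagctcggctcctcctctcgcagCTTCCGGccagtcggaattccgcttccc
Ndufs3: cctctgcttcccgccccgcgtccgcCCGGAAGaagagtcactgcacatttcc
Sdhd: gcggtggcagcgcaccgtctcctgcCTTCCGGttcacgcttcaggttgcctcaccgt
Uqcr11: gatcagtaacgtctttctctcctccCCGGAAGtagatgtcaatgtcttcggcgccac

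The YY1 word AAGATGGCG was in 9.72% of the members' windows, in 1.40% of all windows and in 2.82% of those of tested genes. In 6 of its 7 member genes it lay across or after the start site, and only Atp5j held it before the start (chr16:84835031-84835089, minus strand), where an ETS word follows it.
Atp5j: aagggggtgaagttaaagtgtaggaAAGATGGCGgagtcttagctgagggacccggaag

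Other promoter words were counted the same way. The CCAAT word was in 41.7% of the members' windows and 37.4% of all, and the SP1 word GGGCGG in 38.9% and 35.7%, below the 61.1% of tested genes. TATAAA was in 9.72% of the members' windows against 13.6% of all and 7.54% of tested genes. TGACGTCA, the CRE word, was in 5.56%, 1.79% and 2.89%. The 28 members with an NRF1, ETS or YY1 word had a median level of 219 TPM and the 39 matched members without one a median of 170 TPM. Their median log2 changes between genotypes were -0.05 and -0.07. A match is a description of letters in the window, and a window without a match says nothing of the factor.

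The members were abundant and even between libraries. Together they made up 18608, 18327, 17987 and 17561 TPM in the PGR-A KO libraries and 17784, 18600, 18844 and 19052 TPM in the WT libraries, or 1.76% to 1.91% of all TPM. The groups overlapped, with PGR-A KO replicate 4 lowest and WT replicate 4 highest. Their median level was 176 TPM against 16.6 TPM for all 14472 genes tested, 62 members reached 100 TPM, and 3 lay under 10 TPM. The SD over the 8 libraries on the log2(TPM + 1) scale had a median of 0.09, and 69 members stayed under 0.15. All genes tested had a median SD of 0.17 at their lower levels. Ndufs8, an iron-sulfur core subunit of complex I, varied least, from 112 to 120 TPM with an SD of 0.037. Cox4i2 varied most, with an SD of 0.66.

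Levels differed between complexes and within them. Summed over members and averaged over libraries, ATP synthase stood at 6465 TPM, complex I at 5000 TPM, complex IV at 4573 TPM, complex III at 1825 TPM and complex II at 482 TPM. The 4 subunits of complex II, which the cell assembles at equal numbers, lay within 1.20-fold of each other, from Sdhb at 109 TPM to Sdhd at 130 TPM. The F1 subunits of ATP synthase spanned 4.95-fold, with the catalytic beta subunit Atp5b highest of all members at 1065 TPM.

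**Figure D1:**
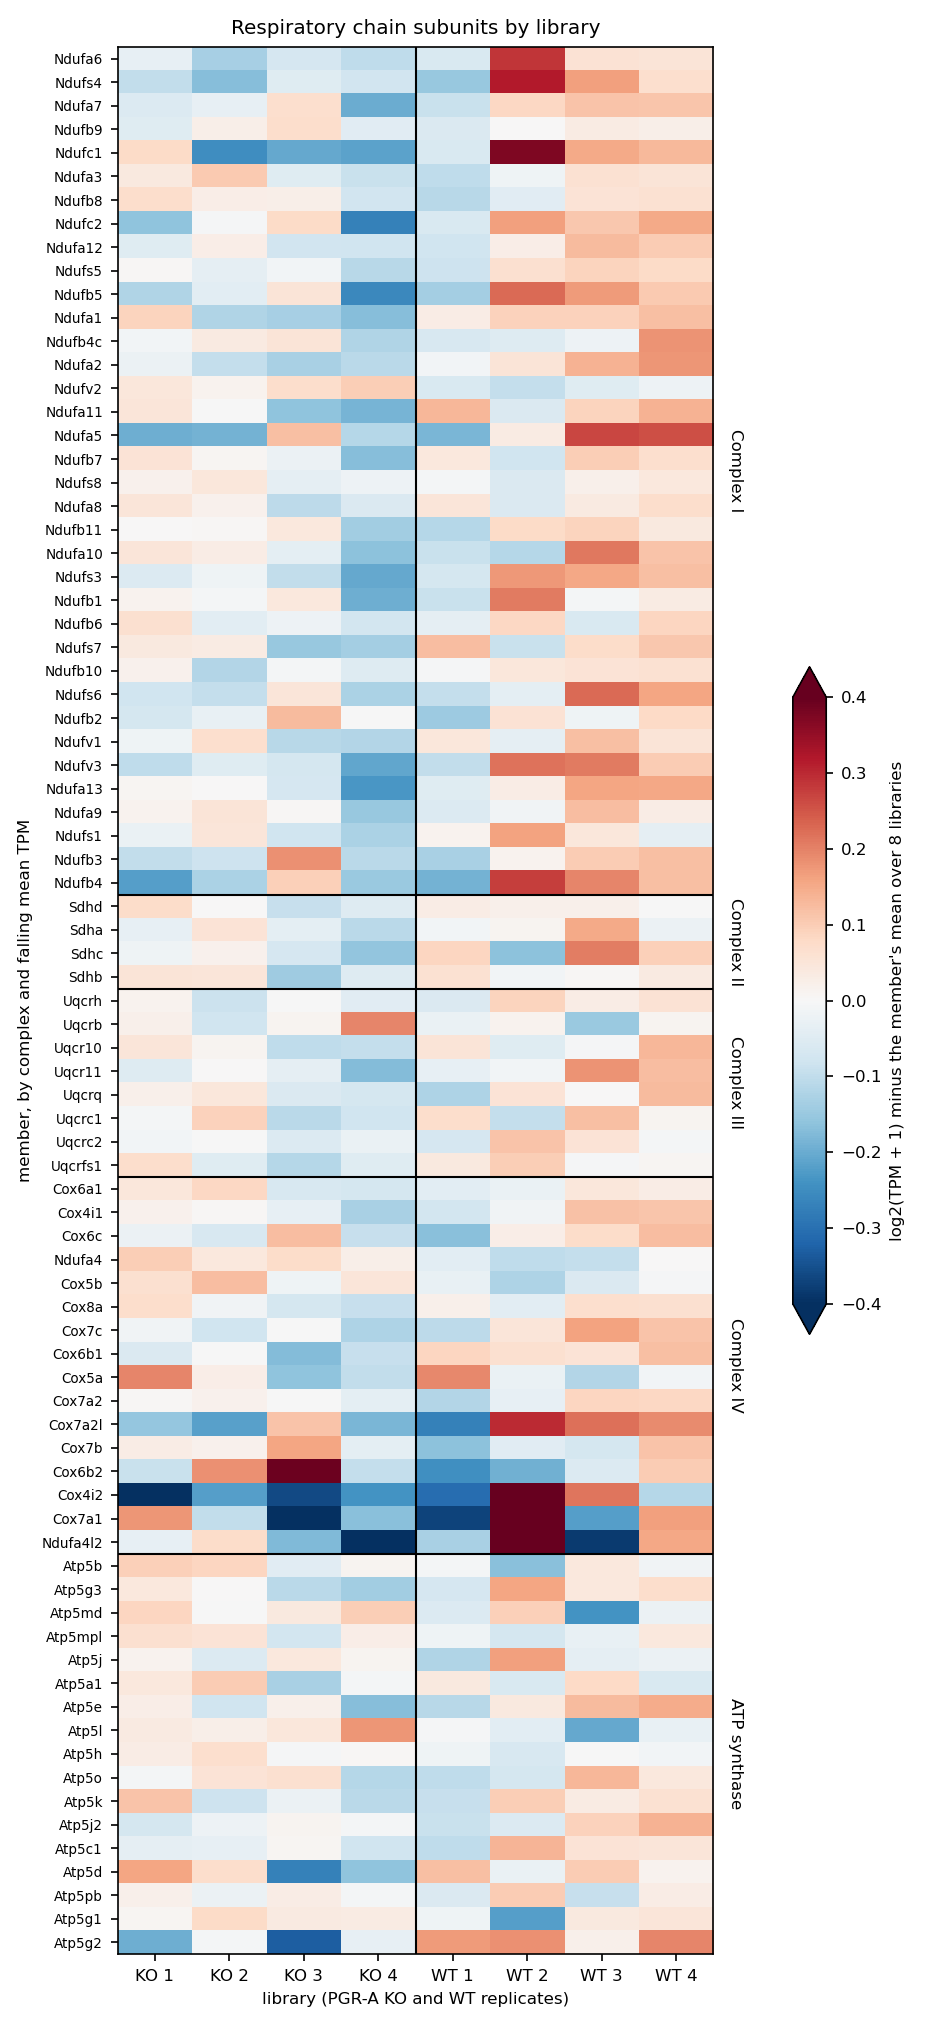
Heat map of 81 of the 82 members (rows, by complex and falling mean TPM) in the 8 libraries (columns). Colour is log2(TPM + 1) minus the member's mean over the libraries and saturates at 0.4 in either direction. PGR-A KO replicate 4 is low and WT replicates 3 and 4 are high across most of complex I, while ATP synthase shows little common shift.

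No member passed the test between genotypes. Of the 82 members, 0 had a Benjamini-Hochberg adjusted limma p under 0.05, as did 0.0138% of all genes tested (2 of 14472). The lowest adjusted p among members was 0.721, for Atp5g2. Group means were lower in PGR-A KO for 62 members and higher for 20, while over all genes 8303 were lower and 6169 higher. The median log2 change was -0.06 for the members and -0.02 for all genes tested.

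At an unadjusted limma p under 0.05 there were 7 members lower in PGR-A KO, or 8.54% of the 82, beside 5.33% of all genes tested. There were 0 members higher, beside 0.974% of all genes. This count depended on single libraries: it was 1 without PGR-A KO replicate 4, beside 2.74% of genes, and 17 without WT replicate 1, beside 9.97%. It was 3 without WT replicate 3, beside 3.28% of genes, and 2 without WT replicate 4, beside 4.44%. It also depended on scaling. With TMM factors, which shift the median of all genes from -0.02 to 0.01, 3 members were lower, beside 3.89% of genes, and 3 were higher, beside 2.2% of genes. Under that scaling 54 members had a lower mean in PGR-A KO and 28 a higher one.

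In 3 members every PGR-A KO library was below every WT library, beside 2.82% of all genes tested, and in 3 every PGR-A KO library was above, beside 0.601%. The 3 lower ones were Atp5g2, Ndufa2 and Cox6b1, and the 3 higher ones Ndufv2, Atp5l and Ndufa4. The higher ones were singled out after their values were seen.

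**Figure D2:**
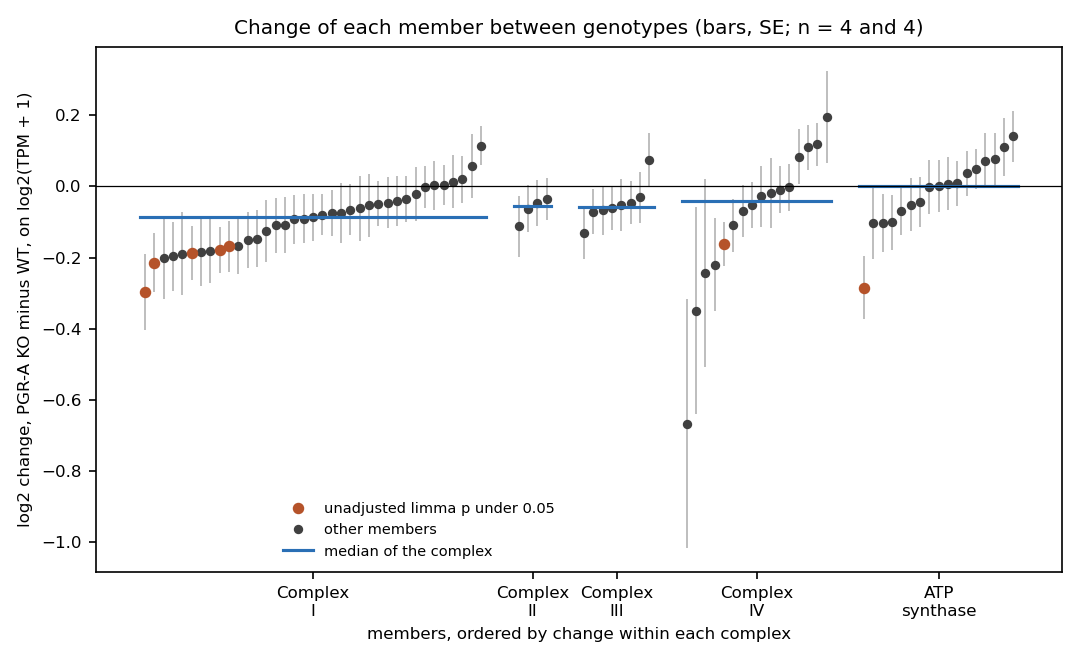
Log2 change of each member, the PGR-A KO mean less the WT mean of log2(TPM + 1), ordered within each complex. Points are estimates from 4 and 4 libraries, bars their standard errors, orange points have an unadjusted limma p under 0.05, and blue lines are the median of each complex, from -0.09 in complex I to 0.00 in ATP synthase.

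Complex I had the lowest median log2 change of the 5 complexes, -0.09. Of its 37 members 31 had lower means in PGR-A KO and 6 higher ones, beside 4 of 4 lower in complex II and 7 of 8 in complex III. Its summed level was 4954, 4889, 4894 and 4602 TPM in the PGR-A KO libraries and 4812, 5247, 5311 and 5293 TPM in the WT libraries. WT replicate 1 lay below 3 of the 4 PGR-A KO libraries, while the other WT libraries lay above all of them. Ndufab1, a complex I subunit outside the symbol rule, is not in these counts and sums. It had a mean of 210 TPM and a log2 change of -0.07 (SE 0.07, limma adjusted p = 0.907).

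The 7 core subunits, which carry the flavin and the iron-sulfur clusters, did not move together: 4 had lower and 3 higher means. Ndufs3 held 94.2, 96.8, 91.3 and 84.7 TPM in the PGR-A KO libraries and 93.2, 110, 109 and 106 TPM in the WT libraries. Only WT replicate 1 fell within the PGR-A KO range. The log2 change of Ndufs3 was -0.19 (SE 0.08, limma adjusted p = 0.783).

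Ndufv2, a core subunit with an iron-sulfur cluster (chromosome 17, 66078795 to 66101559, mm10), held 147, 144, 150 and 153 TPM in PGR-A KO and 137, 134, 138 and 141 TPM in WT. Every PGR-A KO library was above every WT library, with a log2 change of 0.11 (SE 0.05, limma adjusted p = 0.791).

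Of the 29 accessory subunits, which surround the core, 26 had lower means and 3 higher ones. Ndufa2, a small subunit beside the NADH-oxidising arm, held 150, 142, 139 and 141 TPM in PGR-A KO and 151, 158, 167 and 172 TPM in WT. Every PGR-A KO library was below every WT library, but replicate 1 of each genotype was nearly level. The log2 change was -0.18 (SE 0.06, limma adjusted p = 0.774).

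Ndufc1, a subunit of the membrane arm (chromosome 3, 51405479 to 51408955), held 214, 171, 176 and 175 TPM in PGR-A KO and 195, 264, 226 and 222 TPM in WT. PGR-A KO replicate 1 lay above WT replicate 1, so the groups overlapped. Its log2 change of -0.30 (SE 0.11, limma adjusted p = 0.774) was the lowest of complex I.

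Ndufv3, on the NADH-oxidising arm, held 71.8, 74.6, 73.5 and 66.7 TPM in PGR-A KO and 72.1, 89.8, 89.3 and 82.8 TPM in WT, again with WT replicate 1 inside the PGR-A KO range (log2 change -0.21, SE 0.08, limma adjusted p = 0.783). Ndufa1, an X-linked subunit needed for assembly of the membrane arm, held 172, 149, 147 and 143 TPM in PGR-A KO and 165, 172, 172 and 175 TPM in WT. There PGR-A KO replicate 1 overlapped the WT libraries (log2 change -0.17, SE 0.07, limma adjusted p = 0.783). Ndufa6, the most abundant member of complex I, held 245, 228, 239 and 233 TPM in PGR-A KO and 240, 305, 260 and 260 TPM in WT, with WT replicate 2 highest and WT replicate 1 inside the PGR-A KO range.

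Ndufb4 could be read only with its copy. All 31-base words of Ndufb4c, annotated as a processed pseudogene in GENCODE M21 and as protein coding in RefSeq, also occur in Ndufb4 transcripts. The 29 accessory subunits leave out Ndufb4c, which the symbol rule kept as a member. Ndufb4c was listed at 145 to 178 TPM and Ndufb4 at 21.1 to 30.2 TPM, so Ndufb4 took 11.9% to 16.6% of the pair. Their sum was 177, 184, 190 and 167 TPM in PGR-A KO and 172, 182, 183 and 205 TPM in WT, and the groups overlapped. How the reads were divided between these genes is unknown.

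Complex II had lower means in PGR-A KO for all 4 members, none with groups apart. Sdha, the flavoprotein that oxidises succinate, held 119, 127, 119 and 113 TPM in PGR-A KO and 121, 123, 136 and 120 TPM in WT. Sdhc, a membrane anchor, had the lowest p of the complex, with 119, 122, 115 and 108 TPM in PGR-A KO and 128, 107, 139 and 129 TPM in WT (log2 change -0.11, SE 0.09, limma adjusted p = 0.861). WT replicate 2 was its lowest library. Sdhb, the iron-sulfur subunit, and Sdhd, the other anchor, had log2 changes of -0.05 (SE 0.06) and -0.03 (SE 0.06).

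Complex III had 7 lower means and 1 higher, with a median log2 change of -0.06. Uqcrh, the hinge protein that assists the transfer to cytochrome c, was its most abundant member. It held 434, 405, 430 and 416 TPM in PGR-A KO and 414, 458, 439 and 448 TPM in WT, so that WT replicate 1 lay among the PGR-A KO libraries. Uqcr11, a small supernumerary subunit, had the lowest p of the complex. It held 224, 232, 227 and 206 TPM in PGR-A KO and 227, 230, 263 and 253 TPM in WT (log2 change -0.13, SE 0.07, limma adjusted p = 0.807). Uqcrb, which binds near the quinone site, was the single member with a higher mean, and 54.3% of its 31-base words occur in other genes. Cyc1, the cytochrome c1 of this complex, lies outside the symbol rule and also had a higher mean in PGR-A KO. It stood at a mean of 175 TPM with overlapping groups (log2 change 0.09, SE 0.07, limma adjusted p = 0.867).

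**Figure D3:**
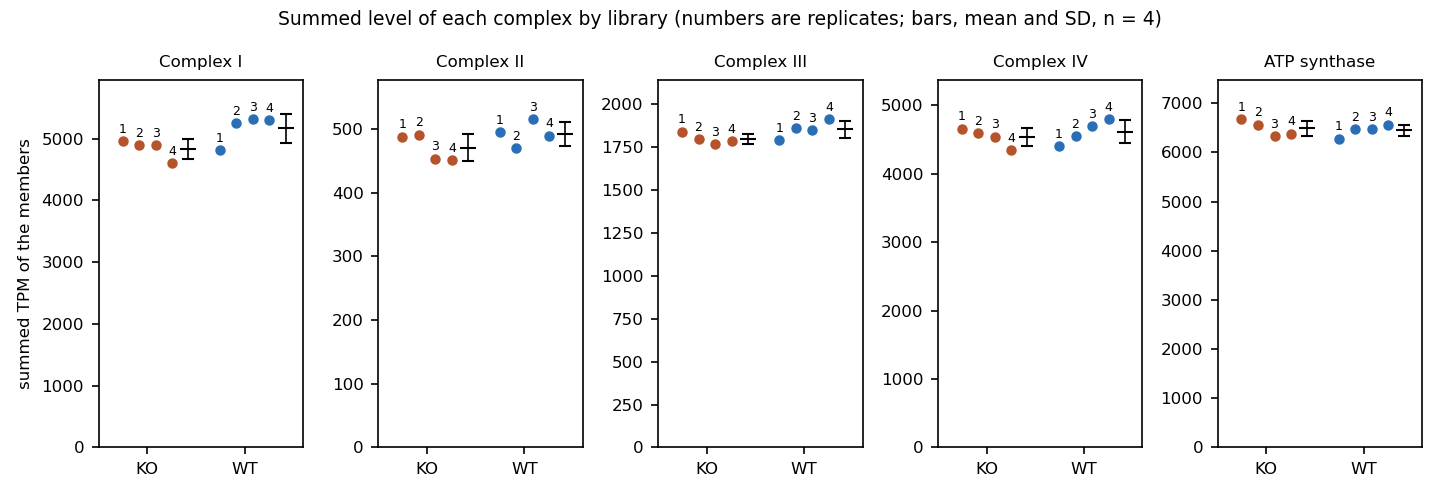
Summed TPM of the members of each complex in each library, with PGR-A KO in orange and WT in blue. Numbers are replicates, and black bars show the mean and SD of 4 libraries. WT replicate 1 is the lowest WT library in complexes I, III and IV and in ATP synthase, and the groups overlap in all 5 panels.

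Complex IV had 12 lower and 4 higher means. Its 11 broadly expressed subunits ranged from Cox7b at 154 TPM to Cox6a1 at 581 TPM. Cox6b1, which faces the intermembrane space and links the dimer (chromosome 7, 30616971 to 30626114), held 341, 355, 314 and 333 TPM in PGR-A KO and 376, 371, 368 and 386 TPM in WT. All 4 PGR-A KO libraries were below all 4 WT libraries, with a log2 change of -0.16 (SE 0.06, limma adjusted p = 0.783).

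Ndufa4, first described with complex I and now placed in complex IV, went the other way (chromosome 6, 11900372 to 11907450). It held 507, 487, 499 and 481 TPM in PGR-A KO and 460, 441, 443 and 474 TPM in WT, with no overlap (log2 change 0.12, SE 0.06, limma adjusted p = 0.795). Cox4i1, the broadly expressed form of the largest nuclear subunit, held 574, 569, 554 and 518 TPM in PGR-A KO and 539, 561, 615 and 612 TPM in WT, where the groups overlapped. Cox6a1, Cox7a2 and Cox8a had log2 changes of -0.0028 (SE 0.07), -0.0092 (SE 0.07) and -0.05 (SE 0.06), and the sign of Cox6a1 and Cox7a2 turned under TMM factors.

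Several complex IV subunits have a second isoform of restricted expression, and all of these were minor here. Cox4i2, known from lung and from cells under low oxygen, was 0.774% to 3.72% of the Cox4i1 and Cox4i2 sum. Cox6b2, known from testis, was 3.48% to 6.45% of its pair with Cox6b1. Cox7a1, the isoform of heart and skeletal muscle, was 1.32% to 3.94% of its pair with Cox7a2. Ndufa4l2, known as a target of hypoxia-inducible factors, was 0.267% to 1.35% of its pair with Ndufa4. The muscle isoforms Cox6a2 and Cox8b and the testis isoform Cox8c reached at most 1.27, 0.3502 and 0.248 TPM. The 8 striated muscle markers summed to 0.636 to 1.58 TPM.

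Of these isoforms, 3 were highest in the same library. Cox4i2 held 4.48, 5.70, 5.08 and 5.62 TPM in PGR-A KO and 5.32, 21.7, 8.05 and 6.21 TPM in WT. Ndufa4l2 held 2.31, 2.57, 2.00 and 1.29 TPM in PGR-A KO and 2.10, 6.04, 1.598 and 2.77 TPM in WT. Cox7a1 held 4.80, 3.78, 2.88 and 3.57 TPM in PGR-A KO and 2.97, 8.66, 3.40 and 4.74 TPM in WT.

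WT replicate 2 was thus far above the other 7 libraries in each, and the remaining values overlapped between genotypes. The log2 change of Cox4i2 was -0.67 (SE 0.35, limma adjusted p = 0.796). Without WT replicate 2 the changes were -0.26 for Cox4i2, -0.06 for Ndufa4l2 and 0.02 for Cox7a1. In that library the 14 granulosa markers had their highest sum, 9578 TPM. Among them Inhba was highest there, at 611 TPM, and Amh lowest, at 147 TPM. Aldh1a1, 1 of the 6 theca and interstitial markers, stood there at 212 TPM, against 58.1 to 82.2 TPM in the other libraries. The other 5 theca and interstitial markers summed to 38.0 TPM in WT replicate 2, inside their range of 28.2 to 41.9 TPM over all libraries. Among them Cyp17a1 (15.2 TPM) and Insl3 (3.22 TPM) were highest in WT replicate 2 and Gli1 (0.810 TPM) lowest. The 8 endothelial markers summed to 58.0 TPM there, against 23.4 to 45.4 TPM in the other libraries. The 8 smooth muscle and pericyte markers summed to 76.15 TPM there, inside their range of 66.8 to 109 TPM over all libraries. Among them Rgs5 was highest there (2.58 TPM, against at most 1.45 TPM) and Myh11 lowest (2.56 TPM). The part of any of these in the isoform levels was not tested, and in such bulk libraries fewer cells of a type and less RNA per cell cannot be told apart. Cox6b2 differed from the other restricted isoforms, with 15.2, 18.6, 21.7 and 15.2 TPM in PGR-A KO and 13.6, 14.1, 15.6 and 17.5 TPM in WT and its highest value in PGR-A KO replicate 3 (log2 change 0.19, SE 0.13, limma adjusted p = 0.837).

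**Figure D4:**
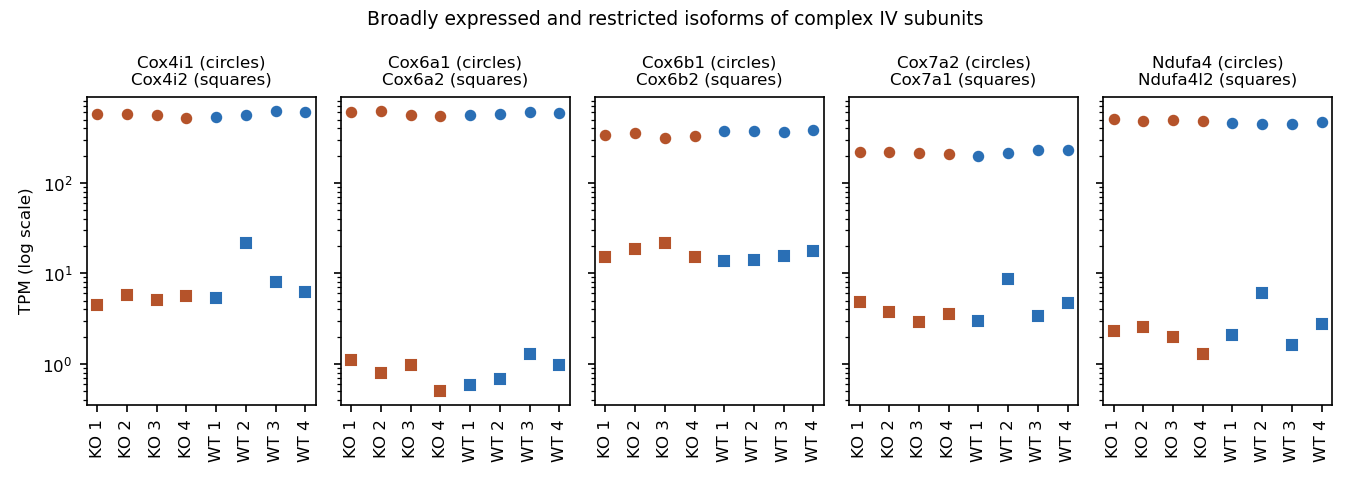
TPM on a log scale of the broadly expressed (circles) and restricted (squares) isoforms of complex IV subunits in each library, with PGR-A KO in orange and WT in blue. The restricted isoforms lie well below their partners, and WT replicate 2 holds the highest Cox4i2, Cox7a1 and Ndufa4l2.

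Cox7a2l, the factor that joins complexes III and IV into supercomplexes, varied most among the 79 members with a mean of at least 10 TPM (SD 0.23 over the 8 libraries on the log2 scale). It held 159, 152, 192 and 156 TPM in PGR-A KO and 147, 218, 207 and 202 TPM in WT. The third PGR-A KO library stood with the high WT libraries, and the lowest library of all was WT replicate 1. Over all 8 libraries the log2 change was -0.22 (SE 0.13, limma adjusted p = 0.812).

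The first principal component of the 79 members with a mean of at least 10 TPM held 48.1% of their variance. It scored the PGR-A KO libraries at 0.33, 0.40, 0.08 and 0.96 and the WT libraries at 0.53, -0.74, -0.85 and -0.71. WT replicate 1 thus scored with the PGR-A KO libraries. The component loaded with a negative sign on 35 of 37 complex I members, 4 of 4 of complex II, 7 of 8 of complex III, 10 of 13 of complex IV and 10 of 17 of ATP synthase. A loading grows with a member's spread between libraries. The strongest were those of Cox7a2l (-0.305), Ndufc1 (-0.254), Ndufb4 (-0.251) and Ndufa5 (-0.238), while Atp5l (0.129) loaded the other way.

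With replicate 3 of PGR-A KO and replicate 1 of WT both left out, a choice made after seeing them, the fit gave 5 members with an adjusted limma p under 0.05. All 5 were lower in PGR-A KO, or 6.1% of the 82, beside 4.17% of the 14114 genes then tested. They were Cox7a2l (log2 change -0.42, adjusted p = 0.0117), Ndufb4 (-0.36, 0.0306), Ndufa5 (-0.35, 0.0391), Ndufv3 (-0.30, 0.0466) and Ndufb5 (-0.31, 0.0498). Ndufb4 cannot be read alone here, since its copy Ndufb4c had a log2 change of -0.07 in that fit (adjusted p = 0.675) and the pair summed to 177, 184 and 167 TPM in these PGR-A KO libraries and 182, 183 and 205 TPM in these WT libraries. The pair's sums overlapped between genotypes. At an unadjusted p under 0.05 this fit had 17 members lower, beside 14% of the genes, and 1 higher, beside 11.1%. Removing libraries that lie with the other genotype widens the contrast between those left, so these values describe 6 libraries and are not a second test of the genotype.

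ATP synthase was balanced, with 9 higher and 8 lower means and a median log2 change of 0.00. Its summed level was 6670, 6562, 6330 and 6378 TPM in PGR-A KO and 6279, 6470, 6471 and 6563 TPM in WT. These sums overlapped between genotypes. Atp5b, which carries the catalytic sites, held 1135, 1130, 1029 and 1071 TPM in PGR-A KO and 1057, 947, 1095 and 1053 TPM in WT (log2 change 0.07, SE 0.08, limma adjusted p = 0.908).

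Of the Fo and stalk members, the proton-carrying c ring is encoded by 3 genes whose mature proteins are the same, Atp5g1, Atp5g2 and Atp5g3. Atp5g3 was the main source at a mean of 732 TPM, and Atp5g2 the lowest of the 12 Fo and stalk members at 44.7 TPM. Atp5g2 (chromosome 15, 102662868 to 102671047) held 38.6, 44.1, 35.1 and 43.3 TPM in PGR-A KO and 50.01, 50.5, 45.0 and 51.0 TPM in WT. No PGR-A KO library reached the lowest WT library, and the log2 change of -0.28 (SE 0.09, limma adjusted p = 0.721) had the lowest p of all members. It kept an unadjusted p under 0.05 in all 20 alternative settings.

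Atp5g2 shares 40.2% of its 31-base words with other genes, mostly with the processed pseudogene Gm10175, which was listed at a mean of 353 TPM. The sum of Atp5g2 and Gm10175 was 362, 383, 421 and 354 TPM in PGR-A KO and 361, 395, 461 and 441 TPM in WT, and these overlapped. The 3 c ring genes summed to 986, 981, 913 and 905 TPM in PGR-A KO and 939, 1033, 996 and 1019 TPM in WT, with overlap. Atp5g1 ranged from 196 to 205 TPM in PGR-A KO and from 167 to 202 TPM in WT, lowest in WT replicate 2.

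Atp5l, subunit g, which helps join the enzyme into dimers (chromosome 9, 44913248 to 44920742), held 374, 371, 376 and 413 TPM in PGR-A KO and 363, 354, 316 and 357 TPM in WT. The groups did not overlap (log2 change 0.14, SE 0.07, limma adjusted p = 0.795). It shares 69.7% of its 31-base words with other genes. One of them, Gm10221, was listed at 61.9, 34.9, 40.7 and 0 TPM in PGR-A KO and 48.1, 32.2, 80.8 and 42.7 TPM in WT, so that it was at 0 in the library with the highest Atp5l and highest in the library with the lowest Atp5l. The sum of both overlapped between genotypes, at 436, 406, 417 and 413 TPM in PGR-A KO and 411, 386, 397 and 400.0 TPM in WT.

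**Figure D5:**
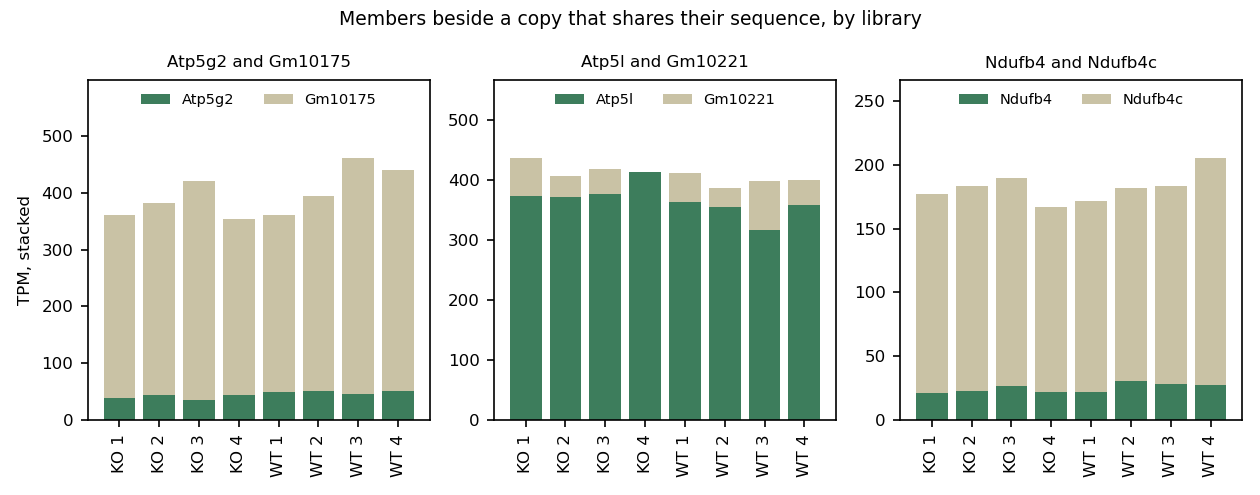
Stacked TPM of 3 members (green) and a copy that shares their sequence (beige) in each library. The copy is the larger part beside Atp5g2 and Ndufb4 and the smaller part beside Atp5l, and Gm10221 is listed at 0 in PGR-A KO replicate 4.

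The mitochondrially encoded subunits of the same complexes were far more abundant. Their 13 transcripts summed to 212184, 208741, 262836 and 263832 TPM in PGR-A KO and 207993, 242589, 207503 and 239230 TPM in WT, or 20.8% to 26.5% of all TPM. PGR-A KO replicates 3 and 4 were highest and the groups overlapped. The largest part was mt-Atp8, listed at 76243, 80541, 106407 and 113611 TPM in PGR-A KO and 73843 to 96227 TPM in WT. The sum of mt-Atp6 and mt-Atp8 and that of the 7 complex I transcripts were likewise highest in PGR-A KO replicates 3 and 4. This ranking did not hold for mt-Cytb or the 3 complex IV transcripts. There WT replicate 4 lay above PGR-A KO replicate 4 (10409 against 9393 TPM, and 67698 against 65881 TPM). Of the 13, means were higher in PGR-A KO for 6 and lower for 7, 0 had an unadjusted p under 0.05, and mt-Nd3 had the lowest (log2 change 0.24, limma adjusted p = 0.834).

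Because TPM is a share, more mitochondrial transcripts leave less for the nuclear ones. With the mt- genes taken out and the rest rescaled to the same total, the 82 members summed to 23902 ± 495 (SD, n = 4) in PGR-A KO and 24084 ± 1133 (SD, n = 4) in WT. Before this the sums were 18121 ± 452 TPM and 18570 ± 556 TPM. In the rescaled values 56 members had lower and 26 higher means.

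Of 49 assembly factors and inhibitors listed, 47 were tested, with 28 lower and 19 higher means and a median log2 change of -0.02. None passed the adjusted threshold. At an unadjusted limma p under 0.05 there were 2 (4.26%), both lower, beside 5.33% of all genes tested that were lower at that limit. Cox14, which helps mature the catalytic subunit of complex IV, held 20.9, 20.5, 21.2 and 19.7 TPM in PGR-A KO and 24.6, 24.9, 22.6 and 24.8 TPM in WT. The groups did not overlap, as in 2.82% of all genes tested in that direction (log2 change -0.23, limma adjusted p = 0.721). Ndufaf8, an assembly factor of complex I, had a log2 change of -0.21 (limma adjusted p = 0.783) with overlapping groups.

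Among the factors that govern mitochondrial genes, 12 of 15 were tested, with 8 higher and 4 lower means and 0 at an unadjusted p under 0.05. The coactivator Ppargc1a was at or below 0.3001 TPM in every library, and Ppargc1b and Perm1 were also under the limit. Nrf1, whose word is shown above, had the lowest p of the list, with 35.7, 36.8, 33.7 and 32.5 TPM in PGR-A KO and 33.6, 27.4, 33.3 and 31.2 TPM in WT (log2 change 0.14, limma adjusted p = 0.807). Gabpa, which binds the ETS word, was at 29.2 to 37.8 TPM, and Tfam, which packages and transcribes mitochondrial DNA, at 38.5 to 58.4 TPM.

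The 16 genes of the citric acid cycle list, which feed the chain, had 10 lower and 6 higher means and a median log2 change of -0.02. The list includes Pdha1, Pdhb and Dlat of pyruvate dehydrogenase, which lies before the cycle, and these were among the higher ones (0.08, 0.02 and 0.01). Suclg1, of succinyl-CoA ligase, had the lowest p (log2 change -0.11, limma adjusted p = 0.807). The 4 genes of the mitochondrial steroid pathway, Fdx1, Fdxr, Cyp11a1 and Star, all had higher means, from 0.11 to 0.17, with 0 at an unadjusted p under 0.05. Their SD over the 8 libraries on the log2 scale had a median of 0.42, beside a median of 0.09 for the members and 0.17 for all genes tested. Cyp11a1 ran from 373.5 TPM in PGR-A KO replicate 3 to 993 TPM in PGR-A KO replicate 1.

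Of the 4 genes of the hypoxia list, 3 had lower means and 1 a higher one. The higher one was Hif1a, a hypoxia-inducible factor (log2 change 0.16, limma adjusted p = 0.909). The lower ones were Epas1, Rbpj (-0.13, limma adjusted p = 0.857) and Lonp1 (-0.01, limma adjusted p = 0.992). Epas1, also a hypoxia-inducible factor, held 117, 98.1, 81.6 and 95.7 TPM in PGR-A KO and 205, 150, 134 and 124 TPM in WT. The groups did not overlap, as in 2.82% of all genes tested in that direction, yet the change did not pass (log2 change -0.62, limma adjusted p = 0.636). Epas1 was highest in WT replicate 1, where Cox4i2, Ndufa4l2 and Cox7a1 stood at 5.32, 2.10 and 2.97 TPM. These 3 isoforms were highest in WT replicate 2, where Epas1 stood at 150 TPM. A link between Epas1 and the isoforms was not tested.

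Ribosomal protein genes give a view of other abundant housekeeping families. Over all genes tested 57.4% of means were lower in PGR-A KO and the median log2 change was -0.02. Of 90 cytosolic ribosomal genes 81.1% had a lower mean (73 lower and 17 higher), with a median log2 change of -0.07. Of 78 mitochondrial ribosomal genes 62.8% had one (49 lower and 29 higher), with a median of -0.03. None of either family passed the adjusted limma threshold, and at an unadjusted p under 0.05 there were 2 cytosolic (2.22%) and 4 mitochondrial ones (5.13%), beside 6.31% of all genes tested.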

How the data were processed

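The authors deposited 1 table of TPM for 51886 gene symbols in 8 libraries of polyA RNA, made with a stranded kit and read as paired ends per the labels. FastQC, Salmon, limma, edgeR and the genome build mm10 are named in the submitters' processing notes, with neither roles nor versions. The sources used here do not give the annotation or the way transcripts were summed to genes.

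Groups and replicate numbers came from the titles. The test was limma (version 3.58.1, R version 4.3.3) with a trend on mean level and no covariate, applied to log2(TPM + 1) of the 14472 genes that reached 1 TPM in 4 or more libraries. Benjamini-Hochberg adjustment ran over all these genes, tests were 2-sided and the threshold was 0.05. A change is the PGR-A KO mean less the WT mean on this log scale, on which low genes appear to change less than they do. A value of 0 can be a failed estimate.

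The members, lists and tests were chosen with earlier results of these data known. The genes named were, in each complex, the most abundant and that with the lowest p, members with an unadjusted p under 0.05, complex II, the isoform pairs, the c ring genes, Cox7a2l, the least and most variable members, those nearest the 1 TPM limit, and the lowest p of each list. Others are named where a result turns on them. The values of 1 member are not reported here, though it is in all counts and sums.

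Positions are from RefSeq on mm10, and promoters from RefSeq on GRCm38.p6, for which 15 members had no entry. Shared sequence was counted as 31-base words in GENCODE M21 transcripts. TMM factors were computed on the TPM table without precision weights. Markers of other cell types were read from the same table, and their sums ranged from 60.9 to 136 TPM for macrophages and leukocytes, 23.4 to 58.0 TPM for endothelium, 108 to 155 TPM for fibroblasts, 66.8 to 109 TPM for smooth muscle and pericytes, 80.7 to 112 TPM for surface epithelium and 1732 to 11370 TPM for erythroid cells.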

Additional observations from a re-analysis of the deposited data

Results flagged for a closer look

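In groups of 4 libraries, 6 of the 72 sets of values looked at, 36 quantities in each genotype, had 1 library far from the other 3. For independent sets not chosen by their values, chance gives about 1 in 20, or 3.6 here. Some of these quantities were chosen from the same values, and the complex sums contain named members. The 3.6 is therefore no strict yardstick for the 6. Cox4i2 stood at 21.7 TPM in WT replicate 2, against 5.32 to 8.05 TPM in the other WT libraries. Atp5g2 stood at 45.0 TPM in WT replicate 3, below the 50.01 to 51.0 TPM of the others. Cox7a2l was at 192 TPM in PGR-A KO replicate 3, above the 152 to 159 TPM of the others. Ndufc1 was at 214 TPM in PGR-A KO replicate 1, above 171 to 176 TPM. Atp5l was at 413 TPM in PGR-A KO replicate 4, above 371 to 376 TPM, in the library where Gm10221 is listed at 0. The summed level of complex I was 4812 TPM in WT replicate 1, below 5247 to 5311 TPM in the other WT libraries.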

How the results depend on the processing

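Of 20 alternative settings, 18 planned and 2 added after the data were seen, 19 left 0 members past the adjusted threshold, and the fit on 6 libraries, with replicate 3 of PGR-A KO and replicate 1 of WT left out, gave 5. The median log2 change of the members, -0.0612 as reported, was lowest at -0.0855 (PGR-A KO replicate 1 left out) and highest at -0.0297 (TMM factors), and was -0.0373 with PGR-A KO replicate 4 left out. The median of complex I (-0.0869) ran from -0.113 to -0.0555, of complex II (-0.0541) from -0.0803 to -0.0227, of complex III (-0.0565) from -0.0727 to -0.0250 and of complex IV (-0.0403) from -0.0862 with that replicate 1 left out to -0.00875 under TMM factors, with a value of -0.0164 when replicate 4 of PGR-A KO was left out. That of ATP synthase, 0.00157 as reported, changed sign, with extremes of -0.0312 (WT replicate 1 left out) and 0.0331 (TMM factors). Members at an unadjusted p under 0.05 and lower in PGR-A KO, 7 as reported, were 3 with TMM factors (3.66% of the members beside 3.89% of genes), 3 with quantile normalization (3.63% of genes), 4 with mt- genes taken out (4.88% beside 4% of genes), 17 in the 6 libraries (20.7% beside 14%), 21 with array weights (25.6% beside 16%) and 1 to 17 when 1 library was left out. Higher members, 0 as reported, were 3 with TMM factors (beside 2.2% of genes), 3 with mt- genes taken out (2.12%), and 1 each with no filter (1.17%), in the 6 libraries (11.1%) and with array weights (8.86%). All genes past the threshold, 2 as reported, were 1 with a pseudocount of 5, 1131 in the 6 libraries, 16 with array weights and 0 to 6 when 1 library was left out, with 0 without WT replicate 2 and 6 without PGR-A KO replicate 3. The cause of these shifts was not tested. Of 598 values for 30 named members, 577 kept their sign and their side of the threshold, 2 passed it in the 6 libraries (Cox7a2l and Ndufv3), and 19 changed sign. The 19 belong to 5 members with a change near 0 or resting on WT replicate 2. Cox6a1 was 0.0288 with TMM factors, 0.0224 with mt- genes taken out, 0.0033 in the 6 libraries and -0.0304 to 0.0204 with 1 library left out. Cox7a2 was 0.0223 with TMM factors, 0.0048 with quantile normalization, 0.0159 with mt- genes taken out and -0.0500 to 0.0177 with 1 library left out. Cox7a1 was 0.0197 without WT replicate 2 and -0.4082 to 0.0197 over all single libraries left out, Sdhb 0.0068 in the 6 libraries, and Ndufs8 -0.0064 with array weights and -0.0154 to 0.0179 with 1 library left out.

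Deviations of same-numbered libraries correlated at 0.361, -0.109, 0.393 and -0.290, and those of differently numbered ones at -0.547 to 0.429. So few values cannot show whether the replicate numbers pair the libraries. With the number as a block 0 members passed, and the lowest limma adjusted p among members was 0.370, against 0.721 without it. At an unadjusted limma p under 0.05, 7 members were lower (8.54%, beside 7.68% of genes). Over all genes, 1112 were lower at that limit with the block and 772 without it, and 256 and 141 were higher. TPM keeps no depth, so counting error could not be separated from the spread between pools.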
